A study of Mus musculus with 24 samples.

Results

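The genes described here are 9 noncoding RNA genes of the mouse: Malat1 and Neat1, the snoRNA host genes Gas5, Snhg1, Snhg3, Snhg6, Snhg8 and Snhg12, and Mir17hg, the host transcript of the miR-17 microRNA cluster. They were picked by symbol from the 54446 Ensembl identifiers of the gene count table, and all 9 were found and passed the filter on low counts that left 15325 genes for testing. CD4+ T cells came from the spleens of 6 mice on a C57BL6 background, and their poly(A) RNA was sequenced at 0, 3, 6 and 24 h of stimulation with anti-CD3/CD28 antibodies. The mice were wild type (WT 1, WT 3 and WT 4) or Aim2-/- (1, 2 and 4), a constitutive germline deficiency in the cytosolic DNA sensor AIM2, so that each of the 8 groups of genotype and time holds 3 libraries, 1 per mouse, and no group was treated otherwise. The study's methods describe immunomagnetic negative selection of splenic CD4+ T cells. By these methods the mice were at first bought, then all bred at the university's animal facility, and housed together after weaning. None of this is stated for these libraries in particular, and the labels give no age. The design asks how each gene changes after stimulation and whether the genotypes differ in this.

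Malat1 and Neat1 are long RNAs kept in the nucleus. Malat1 gathers at nuclear speckles, which store splicing factors, and the long isoform of Neat1 is the scaffold of paraspeckles, while its short isoform carries a poly(A) tail. Malat1 and long Neat1 end without one, so poly(A) selection may recover them in part only, and both Neat1 isoforms fall in 1 row of the table. Small nucleolar RNAs (snoRNAs) guide the chemical modification of ribosomal RNA and are processed from the introns of host genes; several hosts, Gas5 among them, carry a 5' terminal run of pyrimidines like that of ribosomal protein mRNAs, and their spliced RNA is decayed when translated. The microRNAs cut from the Mir17hg transcript are known in T cells for promoting proliferation and survival after activation.

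Aim2 itself was examined before any comparison. Its level was between 32.5 and 75.0 CPM (the count relative to the library's total, scaled by TMM factors) in the 8 libraries of WT 3 and WT 4 and between 5.28 and 20.1 CPM in the 12 Aim2-/- libraries. The libraries labelled WT 1 held 21.5, 16.99, 11.5 and 5.57 CPM at 0, 3, 6 and 24 h, against their label, so calls and counts on WT cells are also given without that mouse where they change. The library totals were between 19715161 and 21627018 counts, and the 9 genes took 0.0946% to 0.265% of them, from 119 counts for Snhg3 in its lowest library to 26524 for Malat1 in its highest. The 8 CD4 T cell markers summed to 3539 to 5301 CPM in all libraries. The 3 basophil and mast cell markers summed to 39.1 to 156.9 CPM in the Aim2-/- libraries over all times and to 5.40 to 14.2 CPM in the WT libraries. In bulk RNA, fewer cells of a type and less RNA per cell cannot be told apart.

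All 9 genes lie on 5 chromosomes (GRCm38, GENCODE vM21). Malat1 (chr19:5795690-5802672, minus strand) and Neat1 (chr19:5824708-5845478, minus strand) are neighbours 22035 bases apart, and each has a longest annotated transcript of 1 exon. Snhg12 (chr4:132308623-132311024, plus strand) and Snhg3 (chr4:132348014-132353686, minus strand) lie 36989 bases apart on opposite strands. The others are Snhg6 (chr1:9941959-9944118, minus), Gas5 (chr1:161034422-161038539, plus), Snhg8 (chr3:123507552-123508404, minus), Mir17hg (chr14:115042879-115046727, plus) and Snhg1 (chr19:8723475-8726443, plus).

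The annotation places 10 snoRNA genes inside Gas5, 8 inside Snhg1, 5 inside Snhg12, 2 inside Snhg3 and 1 each inside Snhg6 and Snhg8, all on the host's strand. Of these 27 rows and the 6 microRNA rows inside Mir17hg, only Snora73b, Snora73a and Snord87 had a count in any library. The rows with no count overlap annotated exons of their host, and the libraries were made from poly(A) RNA, so the values below are those of the host transcripts and not of the small RNAs. Snhg3 shares 135 exonic bases on the same strand with Rcc1, a protein-coding gene with 75410 counts over all libraries against 11016 for Snhg3, so the split of reads between these genes is uncertain. Antisense genes overlap exons of Malat1 (Gm37376, 141 counts in all), Snhg6 (Mcmdc2, 34 counts) and Snhg3 (Gm17300, 17 counts). Gm17300 shares 705 of the 986 annotated exonic bases of Snhg3. Whether the counting used strand is not given in the sources used here.

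The mature microRNAs of Mir17hg are printed because the cluster carries several seeds, and it is the seed (bases 2 to 8, in capitals) that pairs with a target mRNA. The 6 arms below are the usual guide strands of the 6 hairpins, from RefSeq on GRCm38.p6. They fall into 4 seed groups, miR-17-5p with miR-20a-5p, miR-19a-3p with miR-19b-3p, and miR-18a-5p and miR-92a-3p alone.
miR-17-5p: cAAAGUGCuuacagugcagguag
miR-20a-5p: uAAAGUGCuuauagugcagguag
miR-18a-5p: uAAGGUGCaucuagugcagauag
miR-19a-3p: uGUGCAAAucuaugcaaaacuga
miR-19b-3p: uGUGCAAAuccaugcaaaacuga
miR-92a-3p: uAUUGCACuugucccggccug

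Start regions are printed for 4 host genes to show the pyrimidine run at the annotated RefSeq start (GRCm38.p6). Each line holds 50 bases before the start and 50 from it, read on the gene's strand, and the capitals mark the unbroken run of C and T that begins at the start base. The windows are chr1:161035116-161035215 (Gas5, the downstream of its 2 listed starts), chr19:8723437-8723536 (Snhg1), chr4:132308628-132308727 (Snhg12) and chr3:123508287-123508386 on the minus strand (Snhg8).
Gas5: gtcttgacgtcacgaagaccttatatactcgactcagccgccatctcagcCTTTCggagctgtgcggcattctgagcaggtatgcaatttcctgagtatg
Snhg1: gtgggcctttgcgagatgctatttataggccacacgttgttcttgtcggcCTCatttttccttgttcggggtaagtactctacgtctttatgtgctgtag
Snhg12: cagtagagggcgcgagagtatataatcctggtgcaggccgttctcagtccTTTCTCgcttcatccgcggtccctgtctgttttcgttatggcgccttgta
Snhg8: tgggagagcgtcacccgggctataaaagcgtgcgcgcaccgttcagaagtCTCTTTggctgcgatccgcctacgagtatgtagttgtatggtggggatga

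The Gas5 run is 5 bases long, that of Snhg1 3, and those of Snhg12 and Snhg8 6 each. A C at the start base with C or T at each of the next 4 positions was found at these starts of Gas5 and Snhg8, and at 2.51% of the 32851 mouse promoter windows. The other listed start of Gas5 and that of Snhg3 begin with a purine and have no run, and that of Malat1 has a run of 1 base. The letters CACGTG, the E-box bound by MYC (the same on both strands), were in none of the 300-base windows of the 6 genes other than Mir17hg with an entry, and in 7.15% of all windows. The Mir17hg window is left out because its listed start, chr14:115044390, lies inside the gene, whose annotated start is 115042879. These letters describe the windows only, and no binding data were analysed here.

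Before stimulation Malat1 had the highest level of the 9 genes per kilobase of annotated exons. In WT cells at 0 h it was at 165 ± 40.0 CPM per kb (SD, n = 3), followed by Gas5 at 72.8 ± 7.38, Snhg8 at 53.1 ± 12.1 and Neat1 at 43.2 ± 1.78 CPM per kb. Snhg1 (30.1), Snhg12 (19.6), Snhg6 (17), Snhg3 (8.97) and Mir17hg (5.86 CPM per kb) came after them. The libraries of Snhg8 and Neat1 overlapped, while the other neighbours in that order did not. The exon length of Neat1 is 20.771 kb because its row joins the short and the long isoform, which lowers its level per kb.

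At 24 h the order had turned. Gas5 was highest in WT cells at 104 ± 6.28 CPM per kb, then Snhg1 at 68.4, Snhg3 at 57.6, Snhg6 at 52.2, Snhg8 at 51.0 and Snhg12 at 29.95, with Malat1 at 25.8, Mir17hg at 9.82 and Neat1 last at 4.10 CPM per kb. The ranges of Snhg3 and Snhg8 overlapped, as did those of Snhg6 and Snhg8, while Snhg3 and Snhg6 did not overlap. By group mean Malat1 was 1st and Neat1 4th of the 9 at 0 h in Aim2-/- cells too, and they were 7th and 9th there at 24 h. The Aim2-/- libraries of Malat1 at 0 h (57.3 to 133.3 CPM per kb) overlapped those of Gas5 (67.9 to 77.6) and Snhg8 (48.8 to 59.1). At 24 h Malat1 overlapped Snhg12 there, and Neat1 overlapped Mir17hg.

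**Figure D1:**
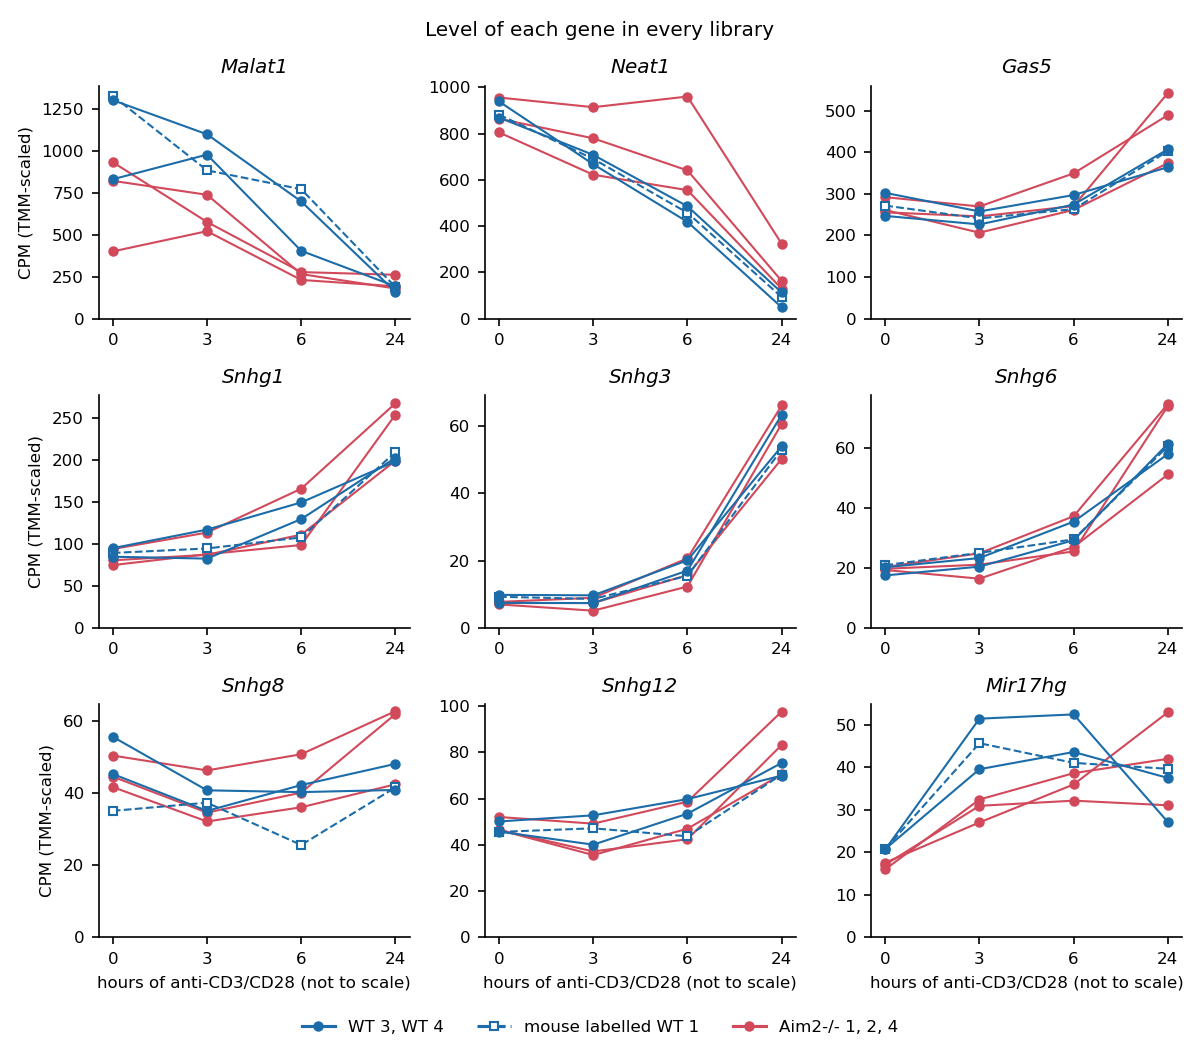
Level of each of the 9 genes (CPM scaled by TMM factors, each panel on its own axis from 0) against hours of stimulation, with 1 line per mouse. WT 3 and WT 4 are solid blue, the mouse labelled WT 1 dashed blue with open squares, and the 3 Aim2-/- mice red; Malat1 and Neat1 fall to 24 h, the host genes other than Snhg8 rise, and Mir17hg is already higher at 3 h.

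By 24 h of stimulation Malat1 had fallen in every mouse. At 0 h its level was 1326, 1300 and 829.7 CPM in WT 1, WT 3 and WT 4 and 931.1, 820.3 and 400.1 CPM in Aim2-/- 1, 2 and 4, so that the mice numbered 4 were the lowest of their genotype. At 24 h the same mice held 188, 159.5 and 192.5 CPM (WT) and 261, 179.4 and 192 CPM (Aim2-/-). All 24 h libraries lay below all 0 h libraries. The log2 fold change at 24 h was -2.68 ± 0.28 (SE, n = 3 against 3) in WT cells (adjusted p = 1.91e-08, edgeR quasi-likelihood test with Benjamini-Hochberg adjustment over all tested genes) and -1.77 ± 0.27 in Aim2-/- cells (adjusted p = 5.32e-06).

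The time course of Malat1 was gradual in WT cells, with group means of 1152, 985.4, 623.9 and 180.0 CPM at 0, 3, 6 and 24 h. In Aim2-/- cells the means were 717.2, 611.1, 257.5 and 211.0 CPM, and most of the fall lay between 3 and 6 h. That step was called in Aim2-/- cells (log2 fold change -1.25 ± 0.26, adjusted p = 0.00205). From 6 to 24 h, Malat1 fell in WT cells by 1.79 ± 0.27 on the log2 scale (adjusted p = 8.28e-06), while in Aim2-/- cells the adjusted p was 0.364. In WT cells the fall from 0 to 6 h (log2 fold change -0.88, adjusted p = 0.00715) lost its call without the 6 h library of WT 4, with an adjusted p of 0.0525.

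Neat1 changed the most of the 9 genes at 24 h in WT cells. Its level went from 882, 939 and 869 CPM in WT 1, WT 3 and WT 4 at 0 h to 93.3, 48.9 and 113 CPM at 24 h. In Aim2-/- 1, 2 and 4 it went from 956, 805 and 864 CPM to 324, 129 and 163 CPM. No library at 24 h reached any at 0 h, and Aim2-/- 1 was the highest at 24 h. The log2 fold changes were -3.40 ± 0.31 in WT (adjusted p = 2.32e-09) and -2.09 ± 0.29 in Aim2-/- cells (adjusted p = 1.54e-06).

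At 6 h Neat1 differed in the calls of the genotypes. The WT libraries held 458, 418 and 486 CPM, and the fall from 0 h was called (log2 fold change -0.98 ± 0.28, adjusted p = 0.00558). The Aim2-/- libraries held 960, 555.5 and 641 CPM at 6 h, with an adjusted p of 0.413 against 0 h. This is no test of a difference between the genotypes, which is given further on.

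Of the 6 snoRNA host genes, 5 rose, at 6 or 24 h, and Snhg8 was not called. Snhg3, which carries the Snora73 snoRNAs of the box H/ACA class, rose the most: its WT libraries held 9.25, 9.82 and 7.45 CPM at 0 h, 15.5, 20.1 and 17.04 CPM at 6 h and 53.0, 54.0 and 63.4 CPM at 24 h. In Aim2-/- cells it went from 6.97, 7.39 and 7.73 CPM at 0 h to 60.7, 50.3 and 66.2 CPM at 24 h. The groups did not overlap, and the rise was 6.42-fold in WT (log2 fold change 2.68 ± 0.20, adjusted p = 1.01e-10) and 8.02-fold in Aim2-/- cells (3.00 ± 0.20, adjusted p = 3.2e-11). At 3 h its WT mean was 8.56 CPM against 8.84 CPM at 0 h, with no call.

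Snhg6, the host of the box C/D snoRNA Snord87, rose 3.07-fold by 24 h in WT cells, from 17.4 to 20.9 CPM at 0 h to 57.8 to 61.2 CPM, and 3.37-fold in Aim2-/- cells, to 51.0 to 74.5 CPM. Snhg1, which hosts several box C/D snoRNAs, rose from 84.6 to 94.7 CPM at 0 h to 197.9 to 209.0 CPM at 24 h in WT cells (2.27-fold, log2 fold change 1.18 ± 0.17, adjusted p = 3.21e-06) and 2.89-fold in Aim2-/- cells. Both had also risen at 6 h in both genotypes, with log2 fold changes between 0.52 and 0.68. The WT call of Snhg1 at 6 h (adjusted p = 0.0145) was lost without the 0 h library of WT 1 (0.0518) or WT 4 (0.0673), without the 6 h library of WT 3 (0.0846), or without mouse WT 3 (0.136) or WT 4 (0.119). In Aim2-/- cells it was lost without the 0 h library of mouse 1 (0.052) or the 6 h library of mouse 4 (0.0948), and that of Snhg6 without mouse 4 (0.0507).

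Gas5, known for its role in growth arrest, and Snhg12 moved less. In the fit without a term for each mouse they were called against 0 h at 24 h only. Gas5 held 272, 302 and 247 CPM at 0 h and 402, 364 and 407 CPM at 24 h in WT 1, WT 3 and WT 4. It held 255, 261 and 292 CPM at 0 h and 542, 374 and 489 CPM at 24 h in Aim2-/- 1, 2 and 4. Its libraries did not overlap between these times, and the log2 fold change was 0.52 ± 0.13 in WT (adjusted p = 0.00143) and 0.80 ± 0.13 in Aim2-/- cells (adjusted p = 1.54e-05). The WT call was lost without mouse WT 4 (adjusted p = 0.0614). Snhg12 rose 1.53-fold in WT and 1.73-fold in Aim2-/- cells at 24 h, from 45.6 to 52.0 CPM over all 6 libraries at 0 h to 69.9 to 97.7 CPM.

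Snhg8, the host of Snora24, was the exception among the host genes. Its WT libraries held 35.1, 55.6 and 45.3 CPM at 0 h and 41.5, 40.9 and 48.1 CPM at 24 h, and its Aim2-/- libraries 44.6, 41.7 and 50.4 CPM and 61.9, 42.4 and 62.7 CPM. The groups overlapped at these times, and no call was made in any of the 17 comparisons. With a term for each mouse, which the labels allow because every mouse gave all 4 time points, Snhg8 was lower at 6 h than at 0 h in WT cells (log2 fold change -0.34, adjusted p = 0.0301) and higher at 24 h than at 6 h in WT (0.30, adjusted p = 0.0488) and in Aim2-/- cells (0.40, adjusted p = 0.0104).

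Mir17hg followed another course and was the earliest of the 9 genes to rise. In WT 1, WT 3 and WT 4 it held 20.8, 20.6 and 20.7 CPM at 0 h, 45.6, 51.4 and 39.5 CPM at 3 h, 41.0, 52.4 and 43.6 CPM at 6 h and 39.6, 27.1 and 37.5 CPM at 24 h. In Aim2-/- 1, 2 and 4 it held 17.5, 17.04 and 15.9 CPM at 0 h, 27.0, 30.9 and 32.4 CPM at 3 h, 35.9, 32.1 and 38.6 CPM at 6 h and 52.9, 31.0 and 42.0 CPM at 24 h. Every stimulated library was above every unstimulated one. The rise at 3 h was 2.20-fold in WT (log2 fold change 1.14 ± 0.16, adjusted p = 1.53e-05) and 1.79-fold in Aim2-/- cells (0.84 ± 0.16, adjusted p = 0.000527).

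From 6 to 24 h Mir17hg fell in WT cells by 0.40 ± 0.16 on the log2 scale (adjusted p = 0.0399), and in Aim2-/- cells the adjusted p for this step was 0.213. The WT fall rested on single libraries: the adjusted p was 0.175 without the 24 h library of WT 3, 0.172 without its 6 h library and 0.0527 without the 6 h library of WT 4. It was 0.488 and 0.0532 without all libraries of WT 3 and of WT 4, and the fall without WT 3 was -0.15 on the log2 scale.

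**Figure D2:**
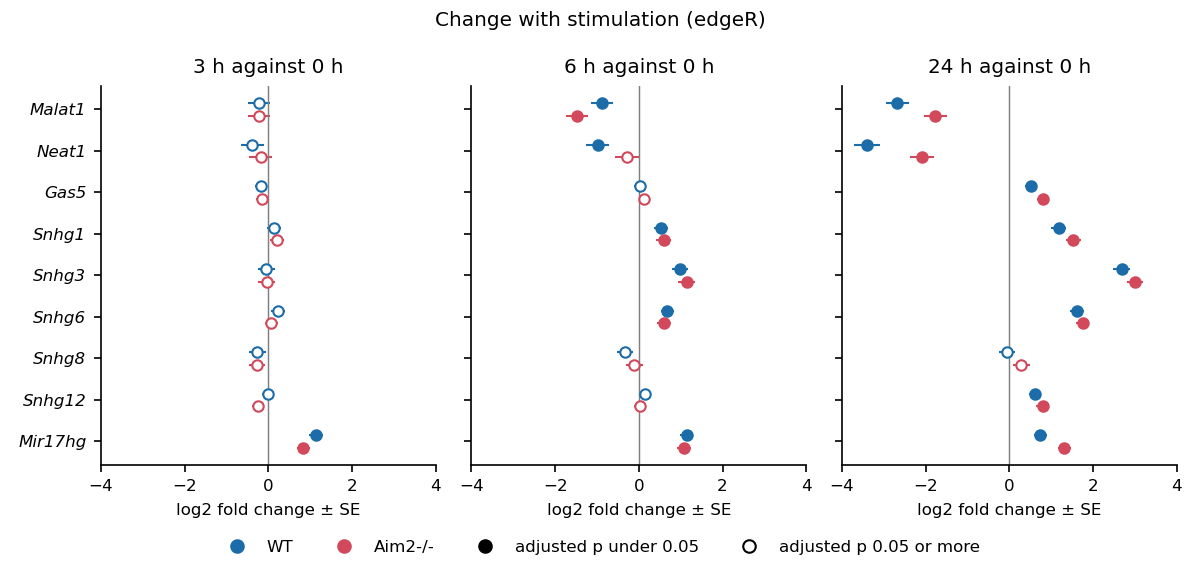
Log2 fold change (± SE, 3 libraries against 3) of the 9 genes at 3, 6 and 24 h against 0 h, with WT in blue and Aim2-/- in red. Filled points passed an adjusted p of 0.05; only Mir17hg is filled at 3 h, and all but Snhg8 are filled at 24 h.

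Counted over the 9 genes, 1 was called at 3 h in WT cells, 6 at 6 h and 8 at 24 h, where 32.6%, 51.1% and 71.4% of all tested genes were called. In Aim2-/- cells the counts were 1, 5 and 8, and 30.7%, 51.2% and 70.3% of all genes were called. With only 9 members a few genes move such counts far, and whether they differ from these shares was not tested. At 24 h the 8 called members split into 6 higher and 2 lower in each genotype, beside 36.6% of all genes called higher and 34.8% lower in WT cells and 36.8% and 33.5% in Aim2-/- cells. The median log2 fold change of the 9 members at 24 h was 0.61 in WT cells, and that of all tested genes was -0.01. With a term for each mouse the count at 3 h in Aim2-/- cells was 2, the added gene being Snhg12, which was lower (log2 fold change -0.26, adjusted p = 0.037). Without the mouse labelled WT 1 the WT counts stayed 1, 6 and 8.

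Between consecutive times, 2 members were called from 3 to 6 h in WT cells (Snhg3 and Snhg6, both higher; 25.7% of all genes) and 3 in Aim2-/- cells (the same genes and Malat1; 23.3%). With a term for each mouse these counts were 5 in WT and 6 in Aim2-/- cells. In WT cells Malat1 and Neat1 were then lower and Snhg1 higher as well. In Aim2-/- cells Gas5, Snhg1 and Snhg12 were higher as well. The 25.7% and 23.3% are shares in the fit without that term. The WT call of Snhg6 (adjusted p = 0.0418) was lost without any of 5 of the 6 libraries compared, with adjusted p between 0.0521 and 0.182, and without any of the 3 WT mice (0.0712 to 0.318), and without mouse WT 1 the count was 1. Its Aim2-/- call (0.022) was lost without the 3 h library of mouse 1 or 2 or the 6 h library of mouse 4, with adjusted p between 0.0542 and 0.186, and without mouse 2 (0.0651) or mouse 4 (0.0621).

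From 6 to 24 h, 8 members were called in WT cells (57.6% of all genes) and 6 in Aim2-/- cells (54.3%). In WT cells 5 were higher (Gas5, Snhg1, Snhg3, Snhg6 and Snhg12) and Malat1, Neat1 and Mir17hg were lower. In Aim2-/- cells the same 5 were higher and Neat1 was lower. Without the mouse labelled WT 1 the WT count was 5, and the calls of Gas5 (adjusted p = 0.0533), Snhg1 (0.0612) and Snhg12 (0.119) were lost. That of Snhg12 was also lost without the 6 h library of that mouse (0.0732) or without mouse WT 4 (0.0821).

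Malat1 was lower in Aim2-/- than in WT cells at 6 h. The WT libraries held 770.5, 698 and 403.6 CPM in WT 1, WT 3 and WT 4, and the Aim2-/- libraries 277, 265 and 230.4 CPM, so that the groups did not overlap. The log2 difference was -1.28 ± 0.26 (adjusted p = 0.00758), and Malat1 was the only member among the 15.8% of genes called at this time. Without the mouse labelled WT 1 it was -1.10 (adjusted p = 0.029), and without mouse WT 3 it was -1.23 with an adjusted p of 0.0558. At 0 and 3 h the log2 differences were -0.68 ± 0.26 (adjusted p = 0.117) and -0.69 ± 0.26 (adjusted p = 0.227), with overlapping libraries at 0 h.

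At 24 h Neat1 stood higher in the Aim2-/- libraries than in WT, by a log2 difference of 1.27 ± 0.28 (adjusted p = 0.0414). The libraries were those given above, 48.9 to 113 CPM in WT and 129 to 324 CPM in Aim2-/- cells, and they did not overlap. Neat1 was the only member called, among 0.666% of all genes. The call was lost without the mouse labelled WT 1 (1.34, adjusted p = 0.08), and the difference fell to 0.78 without Aim2-/- 1 (adjusted p = 0.35) and to 0.98 without WT 3 (adjusted p = 0.427). It was also lost without Aim2-/- 4 (0.0959) or WT 4 (0.0886). At 6 h Neat1 was 0.66 ± 0.28 higher on the log2 scale, with groups that did not overlap and an adjusted p of 0.0997.

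Markers of other cells also differed between the genotypes. At 0 h, where Neat1 was not called (log2 difference -0.035 ± 0.28), the 6 myeloid markers summed to 96.8 to 315.4 CPM in Aim2-/- libraries. In WT libraries they summed to 30.6 to 50.8 CPM at that time. At 6 h the 6 myeloid markers summed to 56.4 to 180.0 CPM in Aim2-/- libraries and to 21.5 to 45.9 CPM in WT libraries. At 24 h they summed to 28.1 to 152.2 CPM in Aim2-/- libraries, highest in mouse 1, which also had the highest Neat1, and to 13.0 to 23.8 CPM in WT libraries. Of them only Fcgr1 was at 0 in all WT libraries at 24 h. All 3 basophil and mast cell markers were called higher in Aim2-/- cells at each time, and 1 or 2 of the 4 neutrophil markers. Of the 6 B cell markers 2 were called higher at 0 and at 6 h, as was 1 of the 6 myeloid markers at 0 h and 1 of the 8 CD4 T cell markers at 6 h, while no CD8 T cell, NK cell or erythroid marker was called. No myeloid marker was called at 3, 6 or 24 h. Without the mouse labelled WT 1 the myeloid count at 0 h was 0, the CD4 T cell count at 6 h was 2 and 1 erythroid marker was called at 6 h. The 5 erythroid markers summed at 24 h to 188.6, 20.05 and 94.9 CPM in Aim2-/- 1, 2 and 4 and to 7.04 to 20.8 CPM in WT libraries. Aim2-/- 1 was again the highest and Aim2-/- 2 the lowest of its genotype. The same held at 24 h for the sums of B cell, basophil and mast cell, neutrophil and NK cell markers. The CD8 T cell sum was highest in Aim2-/- 4, and the CD4 T cell sum was lowest in Aim2-/- 1. The mitochondrial share of counts was 2.72%, 1.77% and 2.91% in the Aim2-/- libraries at 6 h and 1.24% to 1.86% in the WT libraries. At 24 h it was 2.76%, 1.22% and 2.08% against 1.25% to 1.42%. Their part in the levels of Neat1 and Malat1 was not tested.

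No member was called between genotypes at 0 h (5.23% of all genes) or at 3 h (0.294%). By edgeR 1 member had an unadjusted p under 0.05 at 0 h and 2 at 3 h, as had 3649 and 2350 of all 15325 tested genes. DESeq2 called 0 and 1 members. The gene that DESeq2 called was Mir17hg at 3 h, where every Aim2-/- library (27.0 to 32.4 CPM) was below every WT library (39.5 to 51.4 CPM). In the edgeR fit its log2 difference there was -0.60 ± 0.16 with an adjusted p of 0.105, and without the mouse labelled WT 1 the adjusted p was 0.0894. At 6 h it was -0.36 ± 0.16 (adjusted p = 0.116).

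**Figure D3:**
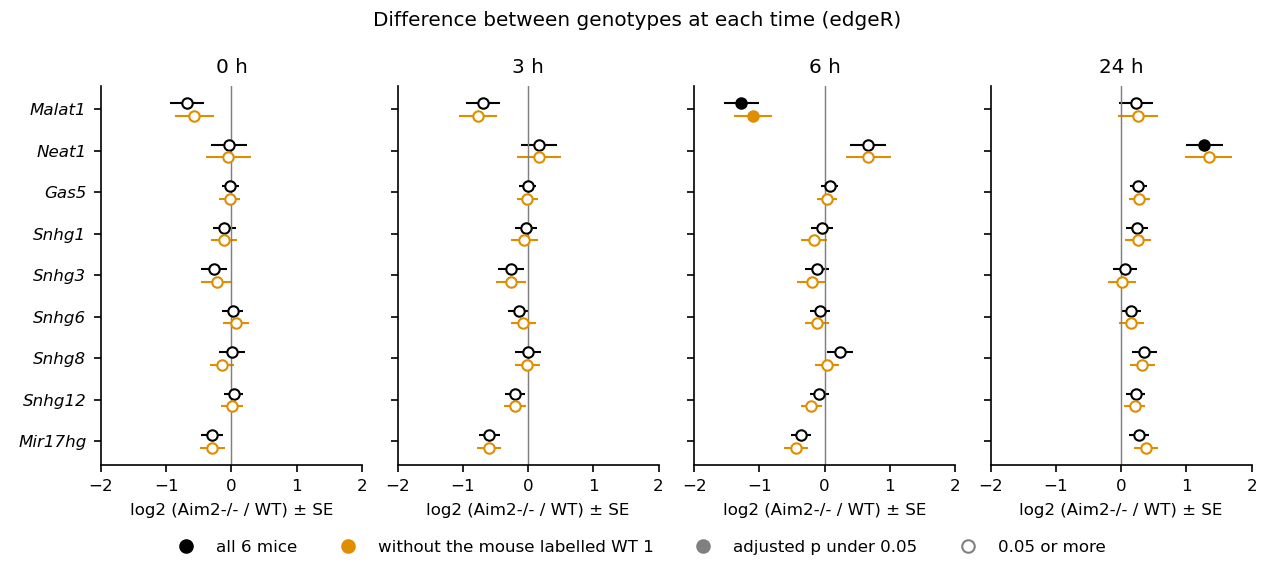
Log2 difference between Aim2-/- and WT cells (± SE) for the 9 genes at 0, 3, 6 and 24 h, from all 6 mice (black) and without the mouse labelled WT 1 (orange). Filled points passed an adjusted p of 0.05; they are Malat1 at 6 h in both fits and Neat1 at 24 h with all mice.

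Whether the response itself differed was tested as a difference of differences. No member was called at 3 h (0% of all genes, 0 of 15325), 6 h (0.0261%) or 24 h (0%). Unadjusted p-values under 0.05 were found for 0, 0 and 3 members by edgeR, and for 653, 2019 and 1825 of all 15325 tested genes. DESeq2 called 0, 0 and 1 members. At 24 h the 3 members found by edgeR were Neat1 (difference of log2 responses 1.31 ± 0.40, adjusted p = 0.187), Malat1 (0.91 ± 0.37, adjusted p = 0.325) and Mir17hg (0.57 ± 0.23, adjusted p = 0.324). By these estimates Neat1 and Malat1 fell less from 0 h in Aim2-/- than in WT cells, and Mir17hg rose more. With a term for each mouse Neat1 alone was called (1.25, adjusted p = 0.0151), and it was the gene called by DESeq2 as well (1.29, adjusted p = 0.0435).

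Other genes of the same machinery were counted at 24 h against 0 h, to be read against the shares of all genes called in each direction, 36.6% higher and 34.8% lower in WT and 36.8% and 33.5% in Aim2-/- cells. The snoRNP proteins, which bind snoRNAs and assemble them into active particles, rose in all: 15 of 15 were called higher in each genotype, with a median log2 fold change of 2.78 in WT and 2.37 in Aim2-/- cells beside -0.01 and 0.03 for all genes. Nhp2 and Gar1, core proteins of the H/ACA class, had WT group means of 29.1 and 22.4 CPM at 0 h and of 365.2 and 230.7 CPM at 24 h. Dkc1, the pseudouridine synthase of that class, went from 49.1 to 437.9 CPM, and Nolc1, a chaperone of snoRNPs, from 113.4 to 961.5 CPM. Already at 3 h, 14 of the 15 were called higher in each genotype. At that time 16.2% of all genes were called higher in WT and 16.1% in Aim2-/- cells. None of the 6 snoRNA host members was called at 3 h by edgeR in the fit without a term for each mouse. In that fit 0 had an unadjusted p under 0.05, and DESeq2 called 0. With a term for each mouse, Snhg12 was called lower at 3 h in Aim2-/- cells, as given above. When WT 1 was left out the counts of snoRNP proteins called higher at 3 h were 12 in WT and 13 in Aim2-/- cells.

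Among other noncoding snoRNA hosts, 10 of 15 were tested, of which 6 were called higher in WT and 8 in Aim2-/- cells, with none lower. The largest rises in WT cells were those of Dancr (log2 fold change 2.69, adjusted p = 1.62e-08), Snhg5 (1.58), Zfas1 (1.38) and Snhg16 (1.15). Without the mouse labelled WT 1, 6 were called higher and 1 lower. At 3 h, 4 of the 10 were called higher in WT and 3 in Aim2-/- cells, where 16.2% and 16.1% of all genes were. Both counts at 3 h were 3 without the mouse labelled WT 1. Of 22 protein-coding snoRNA hosts, 18 were called higher and 1 lower in each genotype, with medians of 1.01 and 1.09, and 17 were called higher in WT cells without the mouse labelled WT 1. The list is led by Dkc1, which the snoRNP list also holds, Ncl, a major nucleolar protein (2.63), the chaperone Hspa8 (2.13) and the chaperonin subunit Tcp1 (1.99). At 3 h, 8 of the 22 protein-coding hosts were called higher and 1 lower in WT cells, and 7 and 1 in Aim2-/- cells. When the mouse labelled WT 1 was left out, 6 and 5 were called higher at 3 h in WT and Aim2-/- cells, and 0 lower.

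Paraspeckle and speckle proteins were counted beside the nuclear RNAs. Of 11 paraspeckle proteins, 10 were called higher in WT and 9 in Aim2-/- cells, and none lower, and without the mouse labelled WT 1 the WT count was 9 as well. Nono, which binds Neat1 at the core of paraspeckles, rose from 157.5 to 340.1 CPM in WT cells, and Cpsf6, Tardbp and Dazap1 had log2 fold changes of 1.11, 0.95 and 0.81. The 10 nuclear speckle and SR proteins were mixed, with 6 higher and 3 lower in each genotype, and 5 and 3 in WT cells without the mouse labelled WT 1. Srsf1 (2.01) and Srsf2 (1.22), splicing factors, were higher in WT cells, and Srrm2 (-1.24) and Son (-1.03), large proteins of the speckle core, were lower. The factors of nonsense-mediated decay, the route by which spliced host RNAs are lost, were 3 higher and 3 lower of 10 in WT cells and 2 and 3 in Aim2-/- cells. Smg1 (-1.46) and Smg6 (-1.18) were the most changed in WT cells, ahead of Upf3b (0.65) and Upf2 (-0.51).

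For Mir17hg, lists of its known activators and of known targets of its microRNAs were counted. Of 5 MYC and E2F genes, 4 were called higher at 24 h in WT and 5 in Aim2-/- cells. E2f1 (3.53), E2f3 (3.23), Myc (3.11) and E2f2 (2.49) led in WT cells. Only Myc was called at 3 h in WT cells (log2 fold change 2.60, adjusted p = 7.21e-09), and Myc and E2f3 were higher and E2f1 lower at 3 h in Aim2-/- cells, while none was lower there once WT 1 was left out of the fit. Of 8 target genes, 7 were called lower in WT and 8 in Aim2-/- cells at 24 h, none was higher, and the medians were -1.77 and -1.53. Rora, a nuclear receptor, fell from 155.3 to 4.67 CPM in WT group means, and Tgfbr2, a TGF-beta receptor chain, from 778.3 to 87.6 CPM. Ikzf4, a transcription factor of regulatory T cells, and Bcl2l11, which encodes the death-promoting protein BIM, had log2 fold changes of -2.23 and -2.07. The microRNAs themselves were not measured.

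Of 11 tested genes among other microRNA hosts and long noncoding RNAs, 2 were called higher and 6 lower in WT cells, and 4 and 4 in Aim2-/- cells. Without the mouse labelled WT 1 they were 1 and 6 in WT cells. Miat (-4.50) and Mir22hg (-2.74) fell in WT cells, as did Meg3, whose group means were only 0.521 and 0.0169 CPM, and Mir155hg, a microRNA host, rose (1.65). The medians of this list were -0.945 in WT and -0.24 in Aim2-/- cells.

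**Figure D4:**
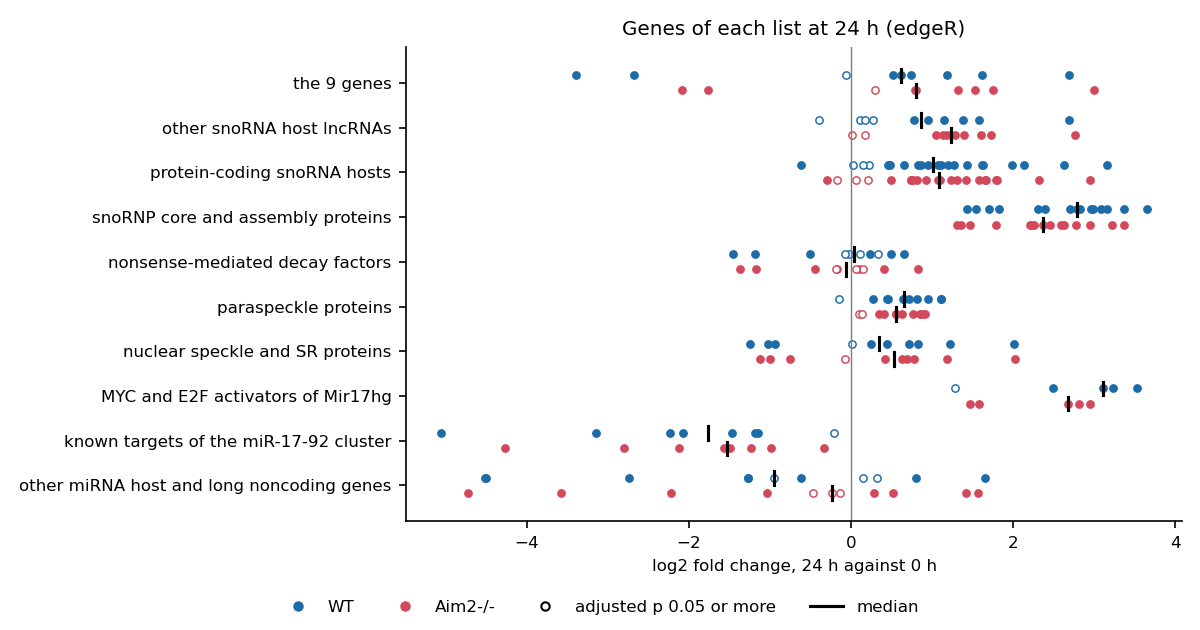
Log2 fold change at 24 h against 0 h of each tested gene in the 9 described genes and in 9 gene lists, WT in blue above Aim2-/- in red, with open points for an adjusted p of 0.05 or more and a black bar at each median. The snoRNP proteins all lie above 0, with medians of 2.78 and 2.37, and the targets of the miR-17 cluster all lie below 0, with medians of -1.77 and -1.53.

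The genes most like each member were found by Pearson's r of log2 CPM over the 24 libraries, which share mice and times, among 8656 other genes with a mean of at least 10 CPM. Malat1 was closest to Leng8 (0.966), Pnisr (0.954) and Zfp26 (0.943), and Neat1 to Gabbr1, Ypel3 and Zc3h7a (0.984 to 0.985). Gas5 was closest to Zfas1 (0.959), a snoRNA host as well, Asf1a and Rpl13a, and Snhg12 to Zfas1 (0.955), Rpl27a and Gas5 itself (0.946). Snhg1 and Snhg6 were both closest to Parl and Rabggtb (0.981 to 0.984), with Uqcrfs1 and U2af1 in the third place, and Snhg3 to Nol7, Cops5 and Mrpl42 (0.987 to 0.988). Snhg8 reached no higher than 0.870, with Rpl39, followed by Tmem189 and Rps21, and Mir17hg was closest to Aoc2 (0.916), Alkbh1 and Snhg17.

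Among the members themselves, Snhg1, Snhg3 and Snhg6 had correlations of 0.964 to 0.976 with each other over the 24 libraries, and Gas5 and Snhg12 of 0.946. Malat1 and Neat1 had 0.743 with each other and negative values with all 7 other members. Snhg8 had 0.684 with Gas5 and 0.678 with Snhg12 and less with the others, Mir17hg had at most 0.543, with Snhg1, and the value between Snhg8 and Mir17hg was -0.0408.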

How the data were processed

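RNA of splenic CD4+ T cells was sequenced by the authors from TruSeq stranded poly(A) libraries, 3 mice in each of 8 groups of genotype and time. The reads were aligned to GRCm38 with STAR, and the authors deposited raw counts per Ensembl gene for all 24 libraries; the strand setting of the counting is not given in the sources used here. Symbols were assigned to 54409 of the 54446 identifiers from GENCODE vM21. Genes were kept by filterByExpr with a minimum count of 10, and edgeR 4.0.16 (R 4.3.3) was run with TMM factors, group means and the quasi-likelihood F test, two-sided, with Benjamini-Hochberg adjustment over 15325 genes and a threshold of 0.05. CPM values are scaled by the TMM factors, and the SE is the log2 fold change divided by the square root of F. On simulated counts the fit was tested before use. Each group has 3 mice, and the main fit has no term for each mouse. Its p-values rest on the spread within groups over all 24 libraries and treat libraries of the same mouse as independent. For comparisons between times they do not measure the spread of the responses within each mouse.

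Alternatives were RLE factors, library totals alone, DESeq2 1.42.0, limma-voom 3.58.1, other count filters, the compared groups alone, the mouse as a block, and each library or mouse left out; a block of mice that bear the same number in both genotypes was added after the data were seen. The members and lists were chosen with earlier results of these data known. Libraries of the same mouse deviated from their group means together (36 pairs, r from 0.139 to 0.567). Named genes were the 9 members, Aim2, up to 4 called genes per list with the largest WT change at 24 h, the 3 most correlated genes per member and small RNA genes inside members; Rcc1 and markers given by name were added after their values were seen.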

Additional observations from a re-analysis of the deposited data

How the results depend on the processing

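Of the 58 single values of members that were called or given above with a test between genotypes, none changed direction under any alternative. Over the whole-set alternatives, 140 of 166 counts of members called stayed within 1.5 times of the reported count. From 3 to 6 h in WT cells the count was 1 with library totals alone, 1 with limma-voom and 5 with every gene that had a count. Between genotypes it was 1 at 3 h with DESeq2, 0 at 24 h with limma-voom, and 1, 2 and 3 at 0, 3 and 6 h with every gene that had a count. For the genotype difference in the 24 h response it was 1 with DESeq2 and 1 with every gene that had a count. With only the groups compared it was 2 at 3 h in WT cells and 0 between genotypes at 24 h. The causes were not tested. All shares of genes called that are given in this text are those of the main fit and not of these alternatives.

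With the mouse as a fixed replicate block the counts were 2 at 3 h in Aim2-/- cells, 5 and 6 from 3 to 6 h in WT and Aim2-/- cells, and 1 for the 24 h response difference. As a random block in limma-voom (correlation within a mouse 0.31) they were 5, 5 and 1 for the last 3 of these. The only other calls that these blocks changed were the gains of Snhg8 given above and, with the random block, its gain from 6 to 24 h in Aim2-/- cells. A replicate block of mice that bear the same number in both genotypes, added after the data were seen, gave 5 and 5 from 3 to 6 h, 1, 2, 3 and 4 between genotypes at 0, 3, 6 and 24 h, and 1 for the 24 h response difference. The labels do not say that a number is shared between genotypes.

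With a library or a mouse left out, the counts ran from 1 to 2 from 3 to 6 h and from 5 to 8 from 6 to 24 h in WT cells. Between genotypes they ran from 0 to 1 at 3 h, from 0 to 2 at 6 h and from 0 to 2 at 24 h. Library totals alone moved the median log2 fold change of all genes by over 0.1 at 3 h, to 0.12 in WT cells and 0.13 in Aim2-/- cells, and to 0.20 at 6 h in Aim2-/- cells. The 3 mice of a group, 1 WT mouse among them against its label, limit the precision. Every member had at least 119 counts in each library.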

Other observations

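Of the hosted snoRNAs, Snora73b had the most counts. It is a box H/ACA snoRNA that lies in an intron of Snhg3. Its level in WT cells was 1.95 to 2.89 CPM at 0 h, 2.34 to 3.61 CPM at 3 h, 4.09 to 5.06 CPM at 6 h and 20.2 to 24.8 CPM at 24 h. In Aim2-/- cells it was 1.26 to 1.48, 1.83 to 2.17, 3.25 to 4.07 and 21.2 to 26.1 CPM at the same times. The libraries at 24 h lay above all others in both genotypes, as did those of its host Snhg3. Snora73a, a close copy, had 175 counts over all 24 libraries against 3759 for Snora73b, and reads may be split between them. snoRNAs carry no poly(A) tail, and whether these reads come from the snoRNA or from unspliced host RNA was not tested.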
